A study of Mus musculus with 11 samples.

Results

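The AP-1 transcription factors were followed as peaks of open chromatin. AP-1 is a dimer of basic leucine zipper proteins. Proteins of the Fos family (Fos, Fosb, Fosl1 and Fosl2) bind DNA as partners of the Jun family (Jun, Junb and Jund), whose members can also pair among themselves. Atf3 is a stress-induced relative that pairs with Jun proteins, and Batf and Batf3 are short relatives that lack a transactivation domain. Several of the genes are immediate early genes, transcribed within minutes of a stimulus through MAP kinases and serum response factor, and handling of cells is known to induce them. A peak was taken as a member when the authors' annotation assigned it to 1 of these 10 genes. There were 82 such peaks of 94410 in all, and each of the 10 genes had at least 1.

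The peaks came from ATAC-seq, in which a transposase cuts open DNA, of purified mouse bone marrow haematopoietic stem cells (HSCs). Old AThi HSCs (3 libraries) were the GFP-low fraction of old mice, labelled as engaging autophagy. Old ATlo HSCs (3 libraries) were the GFP-high fraction, with the same 3 sample numbers as the AThi libraries, and young HSCs (5 libraries) were not fractionated. All groups carried the genotype Gfplc3/Gfplc3, a GFP reporter of the autophagosome protein LC3, and were isolated at steady state. The sources used here give no ages in numbers, no sex and no number of animals behind a library. P-values therefore measure the spread between these libraries. Age and fractionation differ together in each comparison with young HSCs and cannot be told apart, and both comparisons share the 5 young libraries. Isolation took 2 days, and the day of each library was not given. The deposited files hold comparisons and no value per library, so each peak is given by its mean normalised count over all libraries and by levels per group estimated from that mean and the fold changes. In mixed cells a change in how many cells are open at a site and in how open each cell is cannot be told apart.

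HSC identity was checked on the strongest promoter peak of marker genes. Of 10 HSC markers 9 had a promoter peak, with mean normalised counts from 29 (Slamf1) to 414 (Mecom), and Ly6a had none. None of 3 T cell markers had one. Of 4 granulocyte and monocyte markers 2 had one (up to 304, Csf1r), of 3 erythroid markers 2 had one (up to 227, Klf1), and all 4 stromal and endothelial markers had one (28.2 to 130). Of all 138 peaks of the HSC markers 17 (12.3%) were higher and 1 lower in old AThi HSCs, and 12 (8.7%) higher and 2 lower in old ATlo HSCs, than in young HSCs. Over all peaks of the series 7.42% were higher and 2.69% lower in old AThi HSCs, and 6.75% and 2.49% in old ATlo HSCs. Estimated levels summed over all promoter peaks of the HSC markers were 2082 in old AThi, 1897 in old ATlo and 2118 in young HSCs, and those of the granulocyte and monocyte promoters 386 in old AThi, 368 in old ATlo and 358 in young HSCs. They were 286 in old AThi, 289 in old ATlo and 320 in young HSCs for the erythroid promoters. The summed estimated level of the stromal and endothelial promoters was 444 in old AThi, 440 in old ATlo and 340 in young HSCs, with 5 of their 27 peaks (18.5%) higher and 1 lower in each old fraction than in young HSCs. The part of these markers in the results below was not tested.

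Genes of the family differed in how many peaks they held. Fos had 22 and Jun 19, followed by Fosb with 10, Batf with 9, Batf3 with 7, Atf3 with 5, Junb with 4, Fosl2 with 3, Jund with 2 and Fosl1 with 1. Pairs of members are neighbours on their chromosomes. Fos and Batf lie 209.4 kb apart on chromosome 12 with Jdp2, another AP-1 relative, as the 1 protein-coding gene between them in RefSeq, and Batf3 and Atf3 lie 61.4 kb apart on chromosome 1. Of the 82 peaks the authors annotated 27 as promoter, which in their annotation reaches 3 kb to either side of the start site, and 55 as lying elsewhere. Member peaks had a median mean normalised count of 66.4, against 27.5 over all peaks, and a median width of 589 bp, against 547 bp.

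The 250 bases before the start site are shown for the genes whose promoters the results below turn on, from RefSeq (GRCm38.p6) and written 5′ to 3′ on the gene's strand. Capitals mark the motifs TGACATCA (a site like the cAMP response element), the CCAAT box, the GC box GGGCGG (on the other strand CCGCCC) and the TATA box with the letters TATAAA, all searched on both strands. GC boxes that overlap run together in capitals in Fosb.
Fos (chr12:85473640-85473889, plus strand): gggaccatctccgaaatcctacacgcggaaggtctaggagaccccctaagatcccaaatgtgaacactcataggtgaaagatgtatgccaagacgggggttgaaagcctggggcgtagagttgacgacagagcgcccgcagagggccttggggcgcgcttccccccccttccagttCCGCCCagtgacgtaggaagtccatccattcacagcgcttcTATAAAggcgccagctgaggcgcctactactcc
Jun (chr4:95052223-95052472, minus strand): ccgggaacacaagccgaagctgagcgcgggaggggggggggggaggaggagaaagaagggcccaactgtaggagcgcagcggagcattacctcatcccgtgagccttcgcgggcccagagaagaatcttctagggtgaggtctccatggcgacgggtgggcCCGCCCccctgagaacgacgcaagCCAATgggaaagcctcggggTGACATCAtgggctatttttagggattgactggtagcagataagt
Fosb (chr7:19310046-19310295, minus strand): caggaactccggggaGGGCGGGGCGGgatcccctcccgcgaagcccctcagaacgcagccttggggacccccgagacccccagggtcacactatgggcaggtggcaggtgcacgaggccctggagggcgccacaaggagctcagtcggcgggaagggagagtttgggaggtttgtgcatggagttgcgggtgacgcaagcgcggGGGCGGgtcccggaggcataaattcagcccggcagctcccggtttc
Junb (chr8:84978749-84978998, minus strand): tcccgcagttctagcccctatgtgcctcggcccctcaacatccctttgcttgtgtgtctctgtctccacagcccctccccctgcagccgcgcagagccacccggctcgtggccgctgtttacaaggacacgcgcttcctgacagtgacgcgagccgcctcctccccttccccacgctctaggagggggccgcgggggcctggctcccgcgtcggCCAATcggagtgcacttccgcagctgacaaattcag
Fosl2 (chr5:32136222-32136471, plus strand): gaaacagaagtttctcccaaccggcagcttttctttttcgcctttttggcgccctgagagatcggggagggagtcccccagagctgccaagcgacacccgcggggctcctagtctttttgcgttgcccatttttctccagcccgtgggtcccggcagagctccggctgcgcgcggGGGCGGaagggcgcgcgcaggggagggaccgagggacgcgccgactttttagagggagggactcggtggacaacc

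Of the 10 members 9 had an entry in the promoter table. The AP-1 site TGACTCA, which reads TGAGTCA on the other strand, was in none of these 9 windows and in 4.46% of all 32851 RefSeq windows of the same length. The full cAMP response element TGACGTCA and the CArG box bound by serum response factor were also in none, with shares of 1.55% and 1.47% over all windows. Sequence further upstream was not searched, and variants of the motifs other than those named were not counted. Absence from a window therefore does not show that a promoter lacks such a site. Jun alone held TGACATCA, from 45 to 38 bases before its start (2.93% of all windows), and Fos alone held TATAAA, from 33 to 28 bases before its start (12.4%). CCAAT stood in the windows of Jun and Junb (33.8% of all windows) and a GC box in 7 of the 9 (32.7%). These matches describe letters in the windows and not bound sites. GC content of the printed windows was 58.4% for Fos, 61.2% for Jun, 68.8% for Fosb, 66.4% for Junb and 64.4% for Fosl2, against a median of 52.4% over all windows.

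In old AThi HSCs 6 of the 10 genes had a peak that was more open than in young HSCs, and in 4 of them (Fos, Fosb, Jun and Junb) such a peak began inside the gene, past its start site. The share of all genes with a higher peak was not computed, here or for the gene lists below. Genes with more peaks have more chances of a call. At an adjusted p under 0.05 (the authors' DESeq2 test, Benjamini-Hochberg adjustment as deposited), 10 member peaks (12.2%) rose and 2 (2.44%) fell, where 7.42% of all peaks rose and 2.69% fell. Peaks without a deposited adjusted p (1831, no member among them) count as not called in shares of all peaks. The median log2 change of the members was 0.03, against -0.04 over all peaks. The genes with a higher peak were Fos, Fosb, Fosl2, Jun, Junb and Batf3, the genes with a lower peak Atf3 and Batf3, and Fosl1, Jund and Batf had neither. With the median change of the strongest promoter peaks set to 0, 16 member peaks rose and 0 fell (13.1% of all peaks rose), and peaks of Jund and Batf were among those that rose. In old ATlo HSCs 6 member peaks rose (7.32%, against 6.75% of all peaks) and 2 fell (2.44%, against 2.49%), with a median of -0.05, against -0.03. The same scaling gave 19 higher and 0 lower (16.4% of all peaks rose). As deposited, higher peaks there belonged to Fos, Fosl2 and Jun and lower ones to Fos and Fosb. Of 15 peaks called in either comparison 5 were called in both. The comparisons share the young libraries, and the same overlap over all peaks was not computed.

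**Figure D1:**
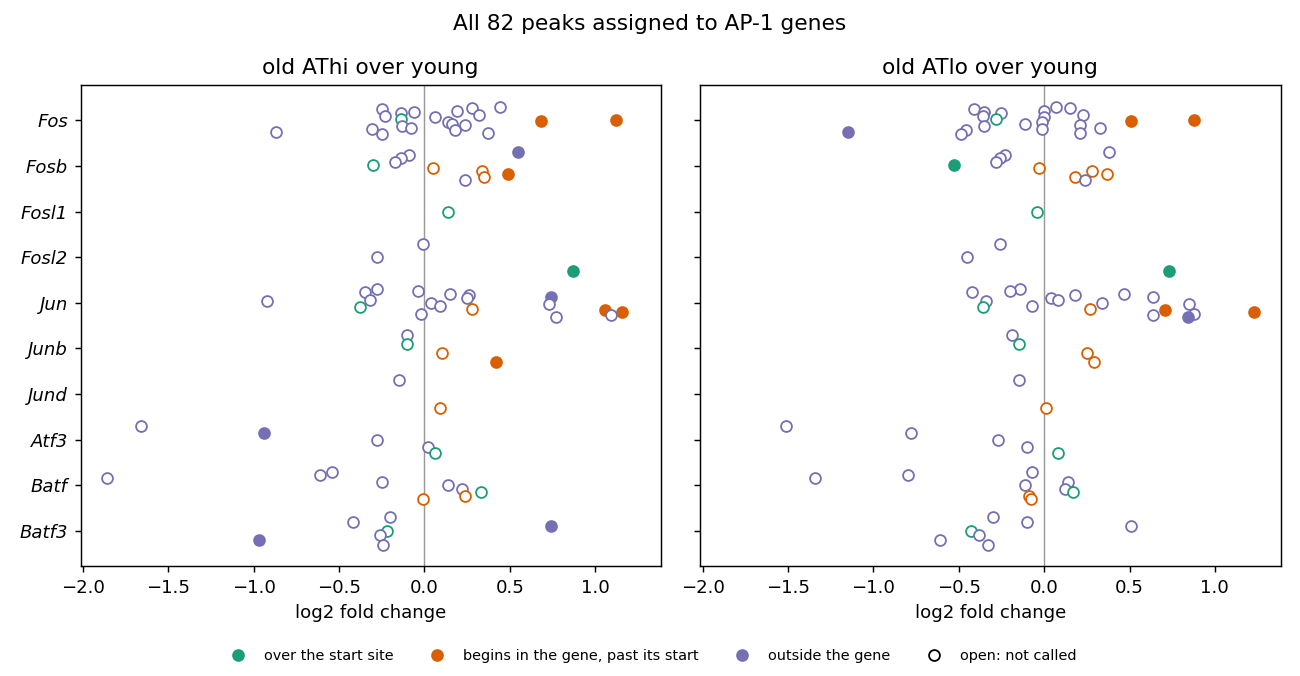
Log2 fold change over young HSCs of each of the 82 peaks assigned to AP-1 genes, 1 row per gene, for old AThi (left) and old ATlo HSCs (right). Filled points passed an adjusted p under 0.05, and colours give the peak's position. Orange points (peaks that begin in the gene, past its start) of Fos, Fosb, Jun and Junb lie right of 0, apart from 1 Fosb point at -0.03 in old ATlo HSCs, and the called peaks at the left are purple apart from the green Fosb start site peak in old ATlo HSCs.

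By the authors' annotation the higher calls lay mainly at promoters. Of 27 member promoter peaks 7 (25.9%) rose and 0 fell in old AThi HSCs, where 7.08% of all promoter peaks rose and 4.42% fell. Of the 55 other member peaks 3 (5.45%) rose and 2 (3.64%) fell, against 7.53% and 2.14% of all such peaks. In old ATlo HSCs 4 promoter peaks rose (14.8%, against 5.67%) and 1 fell (3.70%, against 5.95%), and elsewhere 2 rose (3.64%, against 7.09%) and 1 fell (1.82%, against 1.38%). The promoter label covers several positions. Fos spans 3385 bp, Jun 3187 bp, Fosb 7350 bp and Junb 1840 bp, and a peak up to 3 kb past the start can lie at the far end of Fos, Jun or Junb. Of the 15 member peaks within 1 kb of the start site 2 rose in old AThi HSCs (7.33% of all such peaks) and 1 in old ATlo HSCs (5.75%).

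Sorted by position instead, a split chosen after the values were seen, 9 member peaks lay over a start site, 14 began in a gene past its start (gene body peaks below) and 59 lay outside the gene. Over the start sites 1 of 9 rose and 0 fell in old AThi HSCs (6.93% and 5.27% of all start site peaks), and 1 rose and 1 fell in old ATlo HSCs (5.32% and 8.05%). In old AThi HSCs 6 of the 14 gene body peaks (42.9%) rose and 0 fell, in 4 of the 6 genes with such a peak, where 7.68% of all gene body peaks rose and 2.23% fell. Of the 6, 3 lay within the gene (Fos, Fosb and Jun) and 3 mostly past its end: 1909 of 1974 bp of a Fos peak, 934 of 1529 bp of a Jun peak and 953 of 1524 bp of a Junb peak. Among the 11 that lay mostly in the gene 3 rose in old AThi and 2 in old ATlo HSCs (7.67% of all such peaks in old AThi and 7.18% in old ATlo HSCs). Of the 3 mostly past the end 3 rose in old AThi and 2 in old ATlo HSCs (9.15% of all 153 such peaks in old AThi and 8.5% in old ATlo HSCs). A strong Fosb peak (mean count 1078) begins 7356 bases past the start, just beyond the gene's 7350 bp, and so counts as outside the gene. It was not called, with log2 0.24 (SE 0.18, adjusted p = 0.474) in old AThi and 0.24 (SE 0.18, adjusted p = 0.48) in old ATlo HSCs per the authors' deposited table. Member gene body peaks were strong, with a median mean normalised count of 271, against 23.9 over all gene body peaks. Among all gene body peaks with a mean count of at least 100, 9.96% rose and 5.25% fell, and among those of genes no longer than Fosb 10.2% rose and 1.87% fell. In old ATlo HSCs 4 of the 14 (28.6%) rose and 0 fell, where 7.18% of all gene body peaks rose and 1.58% fell. Shares were 7.5% higher and 5.62% lower among those with a mean count of at least 100, and 8.37% and 2.12% among those of genes no longer than Fosb. Outside the genes 3 of 59 rose and 2 fell in old AThi HSCs (7.41% and 2.23% of all such peaks), and 1 rose and 1 fell in old ATlo HSCs (6.9% and 1.44%). The median log2 change of the 14 was 0.34 in old AThi and 0.28 in old ATlo HSCs. Over the 9 start sites the median was -0.10 in old AThi and -0.15 in old ATlo HSCs, close to the medians of all start site peaks (-0.13 in old AThi and -0.18 in old ATlo HSCs). The sign at start sites depends on scaling. With the median change of the strongest promoter peaks set to 0, from -0.22 in old AThi and -0.30 in old ATlo HSCs, the medians became 0.12 in old AThi and 0.15 in old ATlo HSCs over the 9 start sites, and 0.56 in old AThi and 0.58 in old ATlo HSCs over the 14 gene body peaks. Under that scaling 9 of the 14 gene body peaks rose in old AThi HSCs (13.4% of all gene body peaks) and 10 in old ATlo HSCs (17.4%), and 2 of 9 start sites in each (13.1% of all start site peaks in old AThi and 14.3% in old ATlo HSCs).

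Fos, the founding member of its family, was more open than in young HSCs at 2 peaks, 1 far into the gene and 1 across its end. The peak from 2324 to 2709 bases past the start (chromosome 12, 85522988 to 85523373, coordinates here and below taken as mm39), which the authors annotated as promoter, had estimated levels of 335 normalised counts in old AThi, 284 in old ATlo and 155 in young HSCs. Both old fractions lay above young at this site. Per the authors' deposited table, its log2 change was 1.12 in old AThi HSCs (SE 0.18, adjusted p = 2.4e-08) and 0.88 in old ATlo HSCs (SE 0.18, adjusted p = 3.42e-05). The next peak, annotated as 3′ UTR (85523984 to 85525957), begins 3320 bases past the start and has 65 of its 1974 bp in the gene. It had estimated levels of 1299 in old AThi, 1155 in old ATlo and 809 in young HSCs, and log2 changes of 0.68 (SE 0.18, adjusted p = 0.00295) in old AThi and 0.51 (SE 0.18, adjusted p = 0.0453) in old ATlo HSCs per the authors' deposited table.

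The Fos start site was called in neither fraction. The peak over it (434 bases before to 337 after the start, 85520230 to 85521001) had estimated levels of 386 in old AThi, 350 in old ATlo and 424 in young HSCs. Its log2 change was -0.14 (95% interval -0.47 to 0.20) in old AThi and -0.28 (-0.61 to 0.06) in old ATlo HSCs per the authors' deposited table. With the strongest promoters set to 0 it was 0.08 in old AThi and 0.03 in old ATlo HSCs, still not called. Of the 19 Fos peaks outside the promoter annotation, the strongest upstream one, 19038 to 17935 bases before the start, had estimated levels of 424 in old AThi, 393 in old ATlo and 467 in young HSCs and was not called. A weak peak 44153 bases past the start was called lower in old ATlo HSCs. Its estimated levels were 14.8 in old AThi, 12.1 in old ATlo and 27.0 in young HSCs, with log2 changes per the authors' deposited table of -0.87 (SE 0.39, adjusted p = 0.145) in old AThi and -1.15 (SE 0.39, adjusted p = 0.0357) in old ATlo HSCs.

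Jun, which can form AP-1 with itself or with any Fos protein, showed the same arrangement. The peak from 1977 to 2537 bases past the start (chromosome 4, 94937922 to 94938482) had estimated levels of 307 in old AThi, 242 in old ATlo and 147 in young HSCs. The log2 change per the authors' deposited table was 1.06 in old AThi HSCs (SE 0.18, adjusted p = 4.18e-07) and 0.71 in old ATlo HSCs (SE 0.18, adjusted p = 0.00253). Across the gene's end (94936339 to 94937867, with 595 of 1529 bp in the gene) estimated levels were 907 in old AThi, 953 in old ATlo and 407 in young HSCs. Log2 changes there were 1.16 in old AThi HSCs (SE 0.34, adjusted p = 0.00989) and 1.23 in old ATlo HSCs (SE 0.34, adjusted p = 0.00605) per the authors' deposited table. The SE of this peak was large for its strength. It was 2.40 times the median SE of the 1000 peaks nearest in mean count, at percentile 99.1 among them, and the 1 such ratio of the 82 member peaks above 1.5.

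Nearer to the Jun start no peak was called. A peak from 1300 to 1718 bases past the start did not pass, with log2 0.28 (SE 0.19) in old AThi and 0.27 (SE 0.19) in old ATlo HSCs per the authors' deposited table. The start site peak (735 bases before to 847 after, 94939612 to 94941194) had estimated levels of 661 in old AThi, 671 in old ATlo and 860 in young HSCs. It had log2 changes of -0.38 (SE 0.15, adjusted p = 0.0756) in old AThi and -0.36 (SE 0.14, adjusted p = 0.101) in old ATlo HSCs per the authors' deposited table and was not called in either (-0.16 in old AThi and -0.05 in old ATlo HSCs with the strongest promoters set to 0). Outside the gene, a Jun peak 30550 bases upstream (94970469 to 94971009) rose in old AThi HSCs. Its estimated levels were 60.6 in old AThi, 56.6 in old ATlo and 36.3 in young HSCs, with log2 changes per the authors' deposited table of 0.74 (SE 0.25, adjusted p = 0.0351) in old AThi and 0.64 (SE 0.25, adjusted p = 0.0789) in old ATlo HSCs. A peak 25786 bases past the start was called in old ATlo HSCs, with log2 0.77 (SE 0.28, adjusted p = 0.0585) in old AThi and 0.84 (SE 0.27, adjusted p = 0.0285) in old ATlo HSCs per the authors' deposited table.

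**Figure D2:**
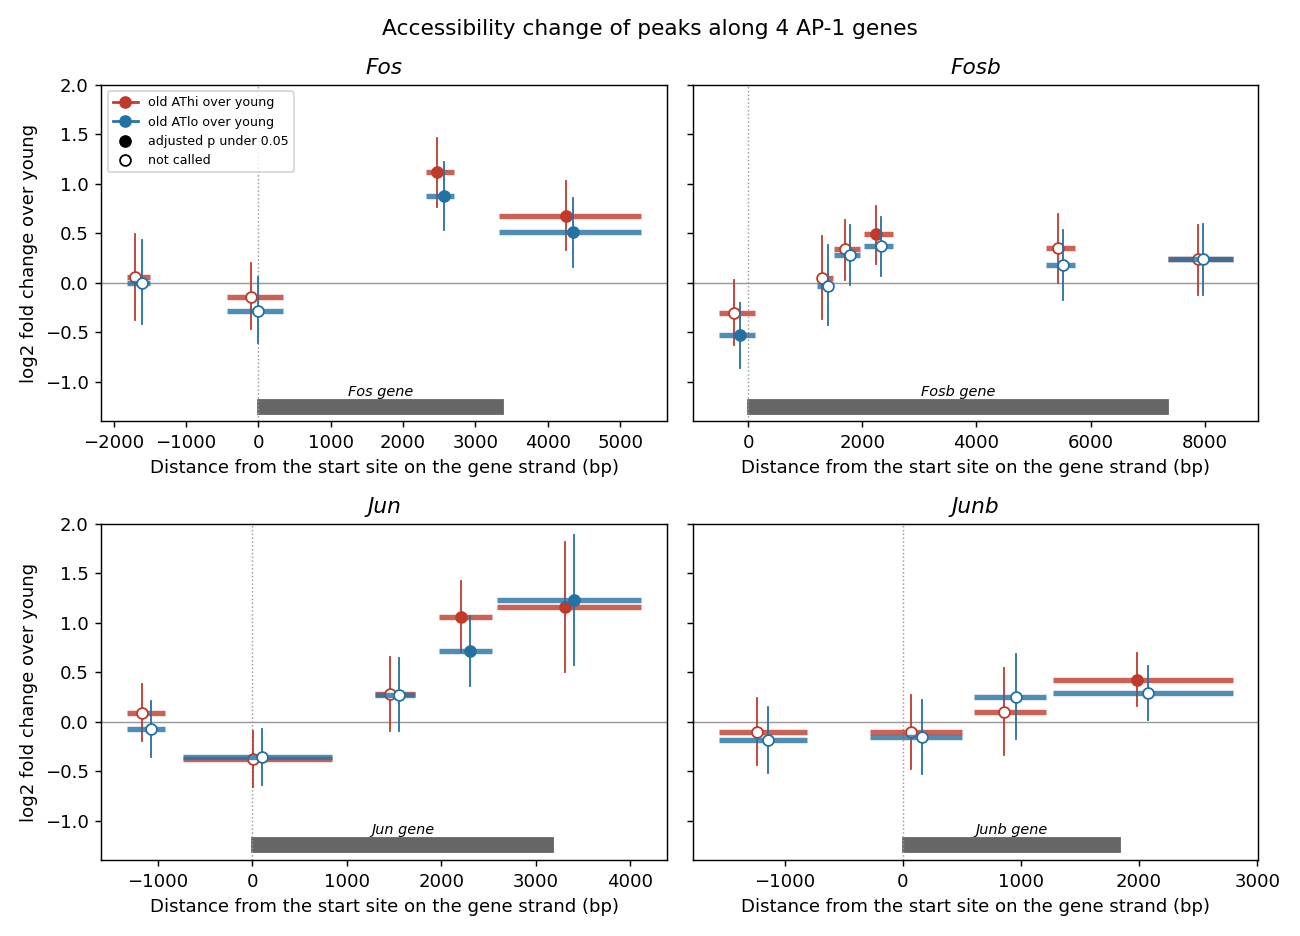
Log2 fold change over young HSCs (vertical axis) of peaks along Fos, Fosb, Jun and Junb against distance from the start site on the gene's strand (horizontal axis, bp). Thick bars span each peak, points sit near its centre, thin lines are 95% intervals, filled points passed an adjusted p under 0.05 and the grey box is the gene. Start site peaks lie below 0 (Fos and Junb lie above it with the strongest promoters set to 0) and peaks towards the gene's end lie above it in both old fractions.

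Fosb had 1 called peak inside the gene and Junb 1 across its end, both in old AThi HSCs. In Fosb, whose protein also pairs with Jun proteins, the peak from 2019 to 2540 bases past the start (chromosome 7, 19041430 to 19041951) had estimated levels of 356 in old AThi, 328 in old ATlo and 254 in young HSCs. Per the authors' deposited table, it rose by 0.49 (log2, SE 0.15, adjusted p = 0.02) in old AThi HSCs, and in old ATlo HSCs the change of 0.37 (SE 0.15, adjusted p = 0.109) did not pass. The start site peak of Fosb (19043853 to 19044494) had estimated levels of 243 in old AThi, 207 in old ATlo and 299 in young HSCs, lower in both old fractions. It fell in old ATlo HSCs by 0.53 (log2, SE 0.17, adjusted p = 0.0235) per the authors' deposited table, while the old AThi change of -0.30 (SE 0.17, adjusted p = 0.286) did not pass. With the strongest promoters set to 0 the old ATlo change was -0.23 and not called. A distal peak 17483 bases upstream of Fosb (19060300 to 19061453) had estimated levels of 246 in old AThi, 219 in old ATlo and 168 in young HSCs. It had log2 changes of 0.55 (SE 0.18, adjusted p = 0.0265) in old AThi and 0.38 (SE 0.18, adjusted p = 0.18) in old ATlo HSCs per the authors' deposited table.

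Junb, which restrains expansion of myeloid cells in mice, had 1 called peak. It begins 1269 bases past the start and has 571 of its 1524 bp in the gene (chromosome 8, 85702585 to 85704108), and its estimated levels were 772 in old AThi, 704 in old ATlo and 576 in young HSCs. The log2 change per the authors' deposited table was 0.42 in old AThi HSCs (SE 0.14, adjusted p = 0.0242) and 0.29 in old ATlo HSCs (SE 0.14, adjusted p = 0.174). The Junb start site peak was not called, with log2 -0.10 (95% interval -0.48 to 0.27) in old AThi and -0.15 (-0.53 to 0.22) in old ATlo HSCs per the authors' deposited table. For Jund, the third Jun gene, the strong peak over the gene begins 620 bases past the annotated start. Its estimate was the most precise of all member peaks, and log2 changes of 0.09 (95% interval -0.12 to 0.31) in old AThi and 0.01 (-0.21 to 0.22) in old ATlo HSCs per the authors' deposited table were not called. The Jund peak upstream, 2466 to 2011 bases before the start, had estimated levels of 127 in old AThi, 127 in old ATlo and 140 in young HSCs and was not called.

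The contrast within a gene was set beside that of other genes, taking for each gene its gene body peak and its start site peak with the highest mean count. These body peaks are the ones across the gene's end in Fos, Jun and Junb, the 3′ UTR peak of Fosb (not called) and an intron peak of Batf. The log2 change of the body peak minus that of the start site peak was 1.54 for Jun, 0.82 for Fos, 0.65 for Fosb and 0.52 for Junb in old AThi HSCs, from the authors' deposited table. Batf, the other member with both kinds of peak, had -0.33. Combined SEs, which take the peaks as independent, were 0.37 for Jun, 0.25 for Fos, 0.25 for Fosb, 0.23 for Junb and 0.23 for Batf. Over all 7282 genes with both kinds of peak the median difference was 0.06, and these members lay at percentiles 97.5 for Jun, 89.4 for Fos, 84.9 for Fosb, 80.3 for Junb and 23.6 for Batf. In old ATlo HSCs the differences were 1.59 for Jun, 0.79 for Fos, 0.71 for Fosb, 0.45 for Junb and -0.25 for Batf, with a median of 0.14 over all genes. Percentiles there were 98 for Jun, 88.4 for Fos, 85.6 for Fosb, 73.6 for Junb and 21.7 for Batf. This comparison was chosen after the values were seen and is a description. A common scaling of a comparison moves both peaks of a gene alike and leaves these differences as they are. A shift that differs between start site and gene body peaks would not cancel. Over all peaks the median log2 change was -0.13 at start sites and -0.02 in gene bodies in old AThi HSCs. In old ATlo HSCs these medians were -0.18 and 0.02.

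**Figure D3:**
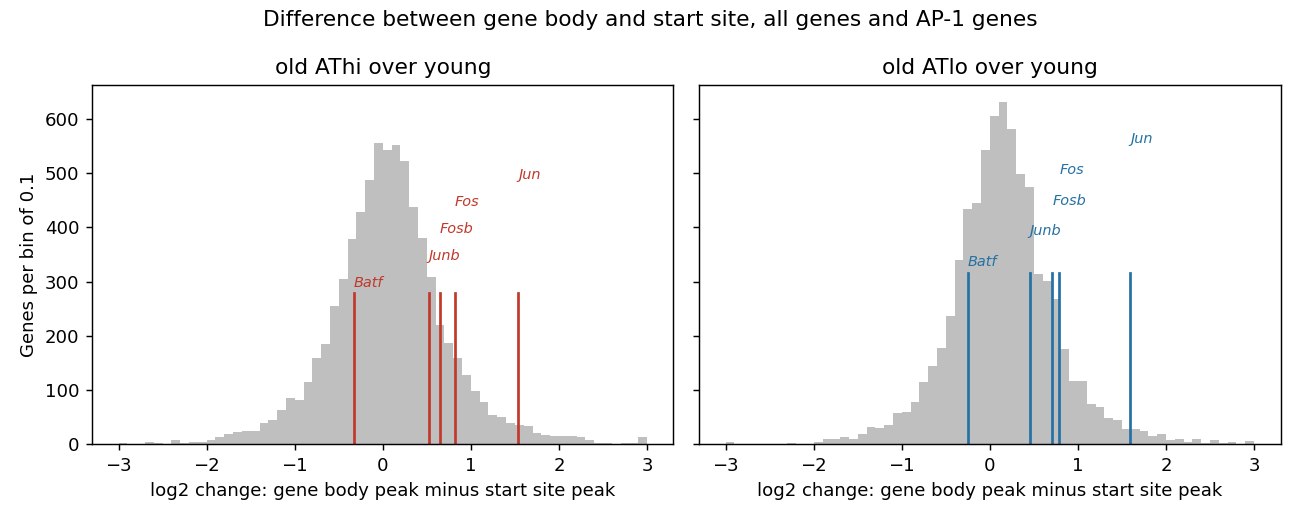
Number of genes (vertical axis, bins of 0.1) by the difference in log2 fold change over young HSCs between the strongest gene body peak and the strongest start site peak (horizontal axis), for old AThi (left) and old ATlo HSCs (right). Lines mark the 5 AP-1 genes with both peaks, and genes beyond 3 in either direction stand in the end bins. Jun, Fos, Fosb and Junb lie right of the median of all genes (0.06 in old AThi and 0.14 in old ATlo HSCs) and Batf lies left of it.

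Fosl2 departed from this arrangement. Its peak over the start site (203 bases before to 340 after, chromosome 5, 32293613 to 32294156) had estimated levels of 184 in old AThi, 168 in old ATlo and 101 in young HSCs. Its log2 change was 0.87 in old AThi HSCs (SE 0.22, adjusted p = 0.00142) and 0.73 in old ATlo HSCs (SE 0.21, adjusted p = 0.0118) per the authors' deposited table. The stronger peak just upstream (1509 to 340 bases before the start) had estimated levels of 395 in old AThi, 352 in old ATlo and 481 in young HSCs. It was not called, with log2 -0.28 (SE 0.17, adjusted p = 0.307) in old AThi and -0.45 (SE 0.17, adjusted p = 0.0618) in old ATlo HSCs per the authors' deposited table. Fosl2 had no peak in the gene past the start site. The single Fosl1 peak, over its start, did not pass, at 0.14 (95% interval -0.26 to 0.54) in old AThi and -0.04 (-0.44 to 0.36) in old ATlo HSCs per the authors' deposited table.

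The relatives on chromosome 1 had calls in both directions. Upstream of Batf3, needed for cross-presenting dendritic cells, a promoter peak 1252 to 310 bases before the start (190829359 to 190830301) rose in old AThi HSCs by 0.74 (log2, SE 0.20, adjusted p = 0.00389), and the old ATlo change was 0.51 (SE 0.20, adjusted p = 0.0825) per the authors' deposited table. A Batf3 peak 20243 bases past the start (190850854 to 190852064) lay lower, with estimated levels of 25.4 in old AThi, 32.8 in old ATlo and 49.8 in young HSCs. Its log2 change was -0.97 (SE 0.29, adjusted p = 0.0131) in old AThi and -0.61 (SE 0.26, adjusted p = 0.138) in old ATlo HSCs per the authors' deposited table. A peak 15145 bases upstream of Atf3 (190930141 to 190930675) had estimated levels of 28.6 in old AThi, 31.9 in old ATlo and 54.9 in young HSCs. It had log2 changes of -0.94 (SE 0.32, adjusted p = 0.0332) in old AThi and -0.78 (SE 0.30, adjusted p = 0.0784) in old ATlo HSCs per the authors' deposited table. The Atf3 start site was not called, at 0.06 (95% interval -0.32 to 0.43) in old AThi and 0.08 (-0.29 to 0.46) in old ATlo HSCs per the authors' deposited table. A further Atf3 peak, 18253 bases upstream and weak, had estimated levels of 5.79 in old AThi, 6.46 in old ATlo and 18.4 in young HSCs and missed the threshold (adjusted p = 0.0559 in old AThi and 0.07 in old ATlo HSCs, per the authors' deposited table). None of the 9 Batf peaks passed. The lowest p in old AThi HSCs belonged to a weak one 25943 bases upstream, with estimated levels of 3.4 in old AThi, 4.88 in old ATlo and 12.4 in young HSCs (adjusted p = 0.0796 in old AThi and 0.175 in old ATlo HSCs, per the authors' deposited table). The Batf start site peak had 0.33 (SE 0.17, adjusted p = 0.242) in old AThi and 0.17 (SE 0.17, adjusted p = 0.63) in old ATlo HSCs per the authors' deposited table.

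**Figure D4:**
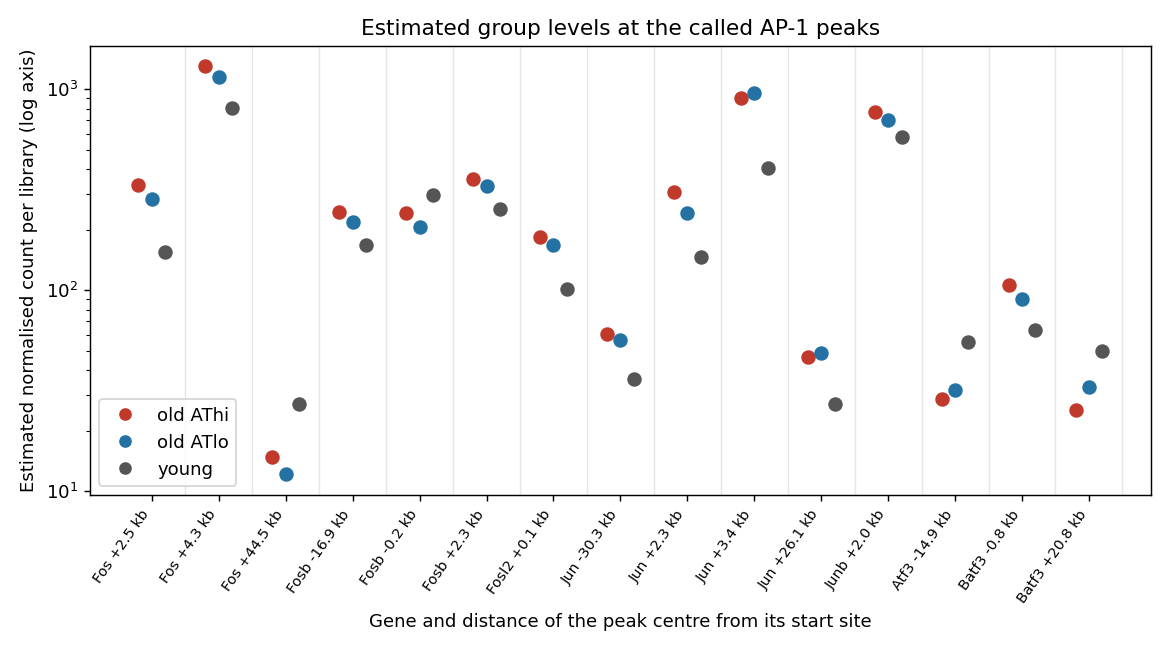
Estimated normalised count per library (vertical log axis) in old AThi, old ATlo and young HSCs at each AP-1 peak called in either comparison with young, labelled by gene and distance of the peak's centre from the start site. These are derived from the mean count and the fold changes and carry no SD. Both old fractions lie on the same side of young at every peak shown. The peaks were picked by these comparisons, which share the young libraries, so this is not independent agreement.

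Between old AThi and old ATlo HSCs no member peak was called, nor was any of the 94410 peaks (0% in either direction) in the authors' DESeq2 test. Without adjustment 0 of 82 member peaks and 1683 of all 94410 peaks had a p under 0.05. The 2 fractions carry the same sample numbers, and a paired test could not be run here. The absence of calls therefore does not show that the fractions are equally open. The smallest member p belonged to the Jun peak 1977 bases past the start, with estimated levels of 307 in old AThi and 242 in old ATlo HSCs and a log2 difference of 0.35 (95% interval -0.04 to 0.73, p = 0.0772, adjusted p = 1) per the authors' deposited table. The next 4, per the authors' deposited table, were the Fos peak 2324 bases past the start (log2 0.24, p = 0.209), a Batf peak 23846 bases upstream (-0.39, p = 0.211), the Fosb start site (0.23, p = 0.214) and a Fosl2 peak 3567 bases upstream (0.25, p = 0.221). Of the 82 member peaks 58 (70.7%) had a higher estimate in old AThi than in old ATlo HSCs, against 51.0% of all peaks, and the median difference was 0.11, against 0.01. Of all promoter peaks 60.7% had a higher estimate in old AThi HSCs. With the median of the strongest promoters (0.09) set to 0, the members' median was 0.02, and 56.1% of members and 37.2% of all peaks lay above 0. Peaks of a gene share their libraries and are not independent.

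Genes around AP-1 were read from 5 lists. Of 18 other basic leucine zipper genes 10 had a higher and 5 a lower peak in old AThi HSCs, 4 of them both, and 7 neither. For old ATlo HSCs the numbers were 7 genes with a higher, 5 with a lower and 8 with no called peak. Of their 195 peaks 8.21% rose and 3.59% fell in old AThi HSCs (7.42% and 2.69% of all peaks), and 6.15% rose and 2.56% fell in old ATlo HSCs (6.75% and 2.49% of all peaks). The Maf peak 791 bases past its start rose by 1.44 (log2, SE 0.24) in old AThi and by 1.10 (SE 0.24) in old ATlo HSCs per the authors' deposited table, and distal peaks of Batf2 and Bach2 rose by 2.25 (SE 0.36) and 2.29 (SE 0.40) in old AThi HSCs and by 2.06 (SE 0.36) and 2.24 (SE 0.40) in old ATlo HSCs. Lower members, per the authors' deposited table, were a distal Maf peak (-1.25 in old AThi, -1.04 in old ATlo), a distal Bach2 peak (-1.60, with -0.70 not passing in old ATlo) and the Bach1 start site (-0.43, with -0.38 not passing in old ATlo). By position, 9 of their 46 gene body peaks and 0 of their 22 start site peaks rose in old AThi HSCs (7.68% of all gene body and 6.93% of all start site peaks), and 5 and 0 in old ATlo HSCs (7.18% and 5.32%).

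Among 18 MAP kinase and serum response genes that act upstream of AP-1, 8 had a higher, 3 a lower and 8 no called peak in old AThi HSCs, with 9.91% of 111 peaks higher and 2.70% lower, against 7.42% and 2.69% of all peaks. Of these genes 6 had a higher, 4 a lower and 9 no called peak in old ATlo HSCs, with 8.11% of peaks higher and 3.60% lower, against 6.75% and 2.49%. By position, 4 of their 57 gene body and 2 of their 18 start site peaks rose in old AThi HSCs (7.68% of all gene body and 6.93% of all start site peaks), and 4 and 2 in old ATlo HSCs (7.18% and 5.32%). The start site of Elk3, a partner of serum response factor, rose by 0.92 (SE 0.15) in old AThi and 0.66 (SE 0.15) in old ATlo HSCs per the authors' deposited table. Intron 2 of Mapk10, which encodes a JNK kinase, rose by 2.72 (SE 0.45) in old AThi and 2.91 (SE 0.44) in old ATlo HSCs, and a peak upstream of Mrtfa, a coactivator of serum response factor, by 1.39 (SE 0.24) in old AThi and 1.04 (SE 0.24) in old ATlo HSCs per the authors' deposited table. Peaks lower in old AThi HSCs, per the authors' deposited table, were assigned to Mapk8 (-1.70, with -1.27 in old ATlo), Mapk14 (-0.75, with -0.33 not passing in old ATlo) and the start site of Map2k7, a kinase of JNK (-0.54, with -0.52 in old ATlo).

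Of 13 negative regulators with a peak 6 had a higher and 4 a lower one in old AThi HSCs, and 6.99% of 143 peaks rose and 4.20% fell, against 7.42% and 2.69% of all peaks. Of the 13, 5 had a higher and 5 a lower one in old ATlo HSCs, where 5.59% of peaks rose and 5.59% fell, against 6.75% and 2.49%. By position, 2 of their 20 gene body and 0 of their 11 start site peaks rose in old AThi HSCs (7.68% of all gene body and 6.93% of all start site peaks), and 2 and 0 in old ATlo HSCs (7.18% and 5.32%). Dusp1, a phosphatase of MAP kinases and itself an immediate early gene, rose in the gene, 2103 bases past its start, by 0.91 (SE 0.17) in old AThi and 0.58 (SE 0.17) in old ATlo HSCs per the authors' deposited table. Dusp6, a phosphatase of ERK, had a distal peak at 1.61 (SE 0.22) in old AThi and 1.44 (SE 0.22) in old ATlo HSCs and a promoter peak at -0.82 (SE 0.16) in old AThi and -0.56 (SE 0.16) in old ATlo HSCs per the authors' deposited table. A distal peak of the ubiquitin ligase gene Cop1 was higher (1.35 in old AThi, with 0.81 not passing in old ATlo) and distal peaks of Zfp36 (-0.94, with -0.53 not passing) and Dusp2 (-0.52, with -0.37 not passing) lower per the authors' deposited table.

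Of 21 known AP-1 target genes with a peak 3 had a higher, 4 a lower and 14 no called peak in old AThi HSCs, and 2.54% of 118 peaks rose and 4.24% fell, against 7.42% and 2.69% of all peaks. Of the 21, 2 had a higher, 2 a lower and 17 no called peak in old ATlo HSCs, where 1.69% of peaks rose and 1.69% fell, against 6.75% and 2.49%. The higher ones were start sites of the metallothionein genes Mt2 (0.72 in old AThi, 0.64 in old ATlo) and Mt1 (0.57 in old AThi, 0.64 in old ATlo) and of Lif, a cytokine (0.67, with 0.50 not passing in old ATlo), per the authors' deposited table. Lower, per the authors' deposited table, were distal peaks of the adhesion receptor gene Cd44 (-1.06 in old AThi, -0.74 in old ATlo) and of Ccnd1, cyclin D1 (-1.05, with -0.60 not passing in old ATlo), and the start site of Vim (-0.45 in old AThi, -0.38 in old ATlo). None of the 27 gene body peaks of these targets was called higher in either comparison (7.68% of all gene body peaks in old AThi and 7.18% in old ATlo HSCs). Of their 19 start site peaks 3 rose in old AThi and 2 in old ATlo HSCs (6.93% and 5.32% of all start site peaks).

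Of 14 other immediate early genes 5 had a higher, 3 a lower and 7 no called peak in old AThi HSCs, and 3.16% of 158 peaks rose and 1.90% fell, against 7.42% and 2.69% of all peaks. Of the 14, 5 had a higher, 5 a lower and 6 no called peak in old ATlo HSCs, where 3.80% of peaks rose and 3.16% fell, against 6.75% and 2.49%. Gene body peaks of Egr1, 1717 bases past its start, and of Nr4a3 rose by 0.75 (SE 0.16) and 1.20 (SE 0.19) in old AThi HSCs and by 0.79 (SE 0.16) and 0.92 (SE 0.19) in old ATlo HSCs per the authors' deposited table, and a Klf4 peak in distal sequence by 1.24 (SE 0.26) in old AThi and 1.33 (SE 0.25) in old ATlo HSCs. The Egr1 and Nr4a3 peaks were the 2 called higher of the list's 13 gene body peaks (7.68% of all gene body peaks rose in old AThi HSCs). Of its 15 start site peaks 0 rose and 1 fell in old AThi HSCs, where 6.93% of all start site peaks rose and 5.27% fell. Lower, per the authors' deposited table, were a distal peak of Klf2 (-0.54 in old AThi, -0.47 in old ATlo), the start site of Ier5 (-0.40 in old AThi, -0.42 in old ATlo) and a distal peak of Klf6 (-0.98, with -0.91 not passing in old ATlo). Between old AThi and old ATlo HSCs 0 peaks of the 5 lists were called.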

How the data were processed

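Per the labels' protocols, transposition ran for 30 min and reads were paired, of 150 bp. Tools named by the submitters' processing notes, with no version, are BWA, ChIPseeker, MACS2, cutadapt, DESeq2, featureCounts and Trim Galore, and the builds are GRCm38 and mm39. The treatment of duplicates, the transposase offset and the merging of peaks, which set where peaks lie, are not given in the sources used here. Each deposited table is 1 comparison over the same peaks. The authors' mean normalised count per peak was used as a signal. The authors' log2 fold changes, their SEs, the Wald statistic (the authors' score) and the deposited p-values, raw and adjusted, were taken unaltered, and no adjusted p was missing among the members. The comparisons were checked against one another. The AThi over young change minus the ATlo over young change equalled the AThi over ATlo change to within 1.02e-14. This would also hold with all signs reversed, so the direction rests on the order in which each comparison names its groups.

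The design had allowed for counts per library. There were 0 columns with values of single libraries, hence no refit. Depth per library is unknown, and precision is that of the SEs (95% intervals reach 1.96 SE either way). Levels per group were estimated from the mean count, taken as the mean of 3 old AThi, 3 old ATlo and 5 young libraries. Gene symbols came from RefSeq by identifier (20791 of 20810 matched). None of the 10 member genes shared a start or end with the RefSeq GRCm38.p6 table, so peak coordinates, 1-based, were taken as mm39, the other build named.

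The members, lists and tests were chosen with earlier results of these data known. Named peaks were each member's strongest promoter peak, its peak with the smallest p in each comparison with young, the 5 with the smallest p between old fractions, and from each list up to 3 genes per direction with the smallest p in old AThi HSCs. Other member peaks named were chosen after their values were seen. Alternatives were other thresholds, adjustment over all peaks, a count minimum of 10, 2 scalings, other promoter limits and a limit of 100 kb. Results of 1 further marker list are not reported here. Recomputed adjustments were tested on simulated data. Python 3.11.15, pandas 2.3.3 and scipy 1.17.1 were used.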

Additional observations from a re-analysis of the deposited data

How the results depend on the processing

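No paired analysis was possible because the files hold no values per library. For the same reason fits that leave out a replicate or use a replicate block were not run, and no result could be checked against a single library. Counts of member peaks were recomputed under each other setting. Adjusting over all peaks and moving the median of all peaks to 0 kept every count within 1.5 times of that reported and every one of the 41 named values on its side of the threshold. A mean count of at least 10 did the same for the 39 named values it left. A limit of 100 kb around the start site removed no member, the farthest being 58646 bases away, and so tests nothing.

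At an adjusted p under 0.01 old AThi HSCs had 6 higher peaks (1 outside promoters) and 0 lower ones, and old ATlo HSCs 3 higher (0 outside promoters) and 0 lower in either class. Asking for a 2-fold change left 3 higher peaks in old AThi HSCs, all 3 at promoters, with 0 higher elsewhere and 0 lower. In old ATlo HSCs it left 1 higher promoter peak, 0 higher elsewhere, and 1 lower peak, with 0 lower at promoters. Jun is then the 1 gene called higher in both fractions. Shares of all peaks under the limit of 0.01 or the 2-fold limit were not computed, so these counts have no background beside them.

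Setting the median change of the 2289 strongest promoter peaks to 0, from -0.22 in old AThi and -0.30 in old ATlo HSCs, gave 16 higher member peaks (6 outside promoters) and 0 lower in old AThi HSCs, and 19 higher (11 at promoters, 8 elsewhere) and 0 lower in old ATlo HSCs. Of all peaks 13.1% were then higher in old AThi and 16.4% in old ATlo HSCs. Over all peaks, 93.8% of calls in old AThi and 98.1% in old ATlo HSCs were then higher, against 73.4% in old AThi and 73.0% in old ATlo HSCs as deposited. All 4 lower calls were lost: Atf3 at 15145 bases upstream (-0.72) and Batf3 at 20243 bases past the start (-0.75) in old AThi HSCs, and the Fosb start site (-0.23) and Fos at 44153 bases past the start (-0.85) in old ATlo HSCs. Of named peaks, the Jund gene peak (0.31 in old AThi and 0.31 in old ATlo) and the Batf start site (0.55 in old AThi and 0.47 in old ATlo) gained a call in both, and Batf3 at 1252 bases upstream (0.81), Fosb at 2019 bases (0.67) and Junb at 1269 bases past the start (0.59) in old ATlo HSCs. No named value changed sign with a call.

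Promoter calls depended on how far a promoter reaches. Within 1 kb of the start 2 rose in old AThi and 1 in old ATlo HSCs (7.33% and 5.75% of all such peaks). Over start sites, a limit chosen after seeing the data, 1 rose in each (6.93% of all start site peaks in old AThi and 5.32% in old ATlo HSCs). Counting distal intergenic peaks alone, 2 rose and 2 fell in old AThi HSCs, and 1 rose and 1 fell in old ATlo HSCs. The shares of all distal intergenic peaks were not computed.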
